A study of Danio rerio with 6 samples.

Results

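The genes described here are the cytochrome P450s, conjugation enzymes, epoxide hydrolases and aldehyde dehydrogenases of the larval zebrafish liver. They were chosen by gene symbol: every gene of the liver count table that begins with *cyp*, *ugt*, *sult*, *gst*, *mgst*, *ephx*, *aldh* or *nat8*, with the 2 pi-class genes *gstp1.1* and *gstp1.2* left out. That gave 82 genes of 6637 rows: 33 P450s (*cyp*), 11 UDP-glucuronosyltransferases (*ugt*), 8 sulfotransferases (*sult*), 8 cytosolic and mitochondrial glutathione S-transferases (*gst*), 3 microsomal ones (*mgst*), 3 epoxide hydrolases (*ephx*), 15 aldehyde dehydrogenases (*aldh*) and the N-acetyltransferase gene *nat8*. The rule reads symbols only.

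RNA was measured in pools of 15 livers dissected from larvae at 7 days post fertilization (dpf), 3 pools from wild-type (WT) larvae and 3 from cr*keap1a/b* larvae. The latter are crispants, injected at the single-cell stage with Cas9 and guide RNAs against the Keap1 paralogs *keap1a* and *keap1b*, so that each larva is a mosaic of edited and unedited cells. The strain of these larvae, and whether WT embryos were injected, are not given in the sources used here. Libraries were made with a 3′ mRNA kit, which reads the 3′ end of each transcript. The paper states that controls were clutch siblings, but the labels name separate pools and not separate clutches. The p-values therefore measure only the spread between these pools. The tests share that spread between genes, so a p-value does not measure the spread of its own gene alone.

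P450s are heme enzymes of the endoplasmic reticulum and mitochondria that add oxygen to drugs, steroids, bile acid precursors and vitamins, the step known as phase I. In phase II, conjugating enzymes attach a glucuronic acid, a sulfate or a glutathione to the product, which makes it soluble and ready for export by transporters. Keap1 is the repressor of Nrf2, a transcription factor whose known targets in vertebrates include glutathione S-transferases and other phase II enzymes.

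The libraries held 9491000 to 15030300 counts in rows with a gene ID, the fewest in WT replicate 2 and the most in WT replicate 3. cr*keap1a/b* replicate 3 held 11168200. In both groups the replicate 3 library stood apart: 53.2% of genes in WT and 47.6% in cr*keap1a/b* had 0 counts there, against 2.83% to 13.1% in the other 4, which share the letter a in the sample descriptions. The letter b marks the replicate 3 libraries, and the labels do not explain it. Values within letter a stand beside the main results. The targeted genes did not separate the groups. In WT replicates 1, 2 and 3, *keap1a* had 375, 0 and 379 counts and in cr*keap1a/b* 291, 307 and 0, while *keap1b* had 314, 261 and 10 counts against 489, 309 and 0. Transcript counts do not show whether the reading frame was edited. Hepatocyte markers were abundant in every library (11 of 12 in the table, summing to 145510 to 210678 CPM in WT and 98314 to 168449 in cr*keap1a/b*, 2 of them called lower). Other sums, WT first, were 23696 to 38128 against 7504 to 11099 CPM for exocrine pancreas (12 of 17 markers, 7 called lower), 1321 to 1728 against 1064 to 1134 for biliary cells (4 of 7), 518 to 2374 against 212 to 409 for skeletal muscle (9 of 14) and 521 to 666 against 620 to 2278 for erythrocytes (7 of 9). Endothelium (3 of 8, 21.6 to 83.8 against 0 to 33.2) and macrophages (3 of 10, 29.3 to 70.3 against 21.7 to 133) were low, and no marker of these last 5 cell types was called. The markers were chosen with earlier results of these data known. Over all genes tested, 0.595% were called lower and 43.0% had a negative log2 fold change. So had 8 of 11 hepatocyte, 12 of 12 exocrine pancreas, 3 of 4 biliary and 9 of 9 skeletal muscle markers. For endothelium it was 2 of 3, for macrophages 1 of 3 and for erythrocytes 1 of 7.

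All 82 genes passed the filter on low counts and were tested with limma-voom among 6386 genes. At an adjusted p under 0.05, 2 of the 82 rose in cr*keap1a/b* livers, *mgst3b* and *sult6b1*, and the background over all genes was 0.595%. One P450, *cyp3a65*, fell, and the background of lower calls was also 0.595%. With edgeR's quasi-likelihood test, where 0.251% of all genes were called higher and 0.0940% lower, 0 of the 82 were called in either direction. An unadjusted p under 0.05 was found there for 4 higher and 1 lower of the 82, and for 253 of all 6386 genes. DESeq2 called *sult6b1* and *gsto2* higher (background 2.18%) and *cyp3a65* lower (background 0.973%), the background being taken over the 4727 genes to which it gave an adjusted p. Within the 4 libraries of letter a, limma-voom called 4 higher (background 2.31%) and 3 lower (background 2.15%). The higher ones were *mgst3b*, *sult6b1*, *gsto2* and *mgst2*, and the lower ones *cyp3a65*, *cyp2y3* and *cyp2u1*. edgeR on the same 4 libraries called 3 higher (background 1.38%) and 1 lower (background 0.480%), without *mgst2*, *cyp2y3* and *cyp2u1*. Letter a holds only replicates 1 and 2 of each group. With these, limma-voom in effect took the variance of each gene from all genes together. A small p there does not measure the spread of that gene's own pools. Values below are counts scaled by TMM to a common library total (CPM), with the 3 pools of a group in the order of replicates 1, 2 and 3, and as mean ± SD over n = 3 pools.

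The groups did not overlap for 13 of the 82 genes. All 3 cr*keap1a/b* values were above all 3 WT values for 5 genes (6.10%, against a background of 8.39%), and below them for 8 genes (9.76%, against 5.0%). Of the 33 P450s, 6 were lower without overlap (18.2%) and 0 were higher. Low counts limit this reading, since 22 of the 82 were at 0 in both replicate 3 libraries. Among the 31 genes above 0 in all 6 libraries, 4 were higher (12.9%) and 7 lower (22.6%), where 12.7% and 9.35% of the 1935 such genes in the table were. When CPM was scaled by library size only, 7 were higher (background 10.4%), with *ugt1a7* and *sult2st1* added, and 6 lower (background 3.84%). *cyp1a*, *cyp24a1* and *cyp2y3* then overlapped, *aldh6a1* no longer did, and 3 P450s remained among the lower ones.

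**Figure D1:**
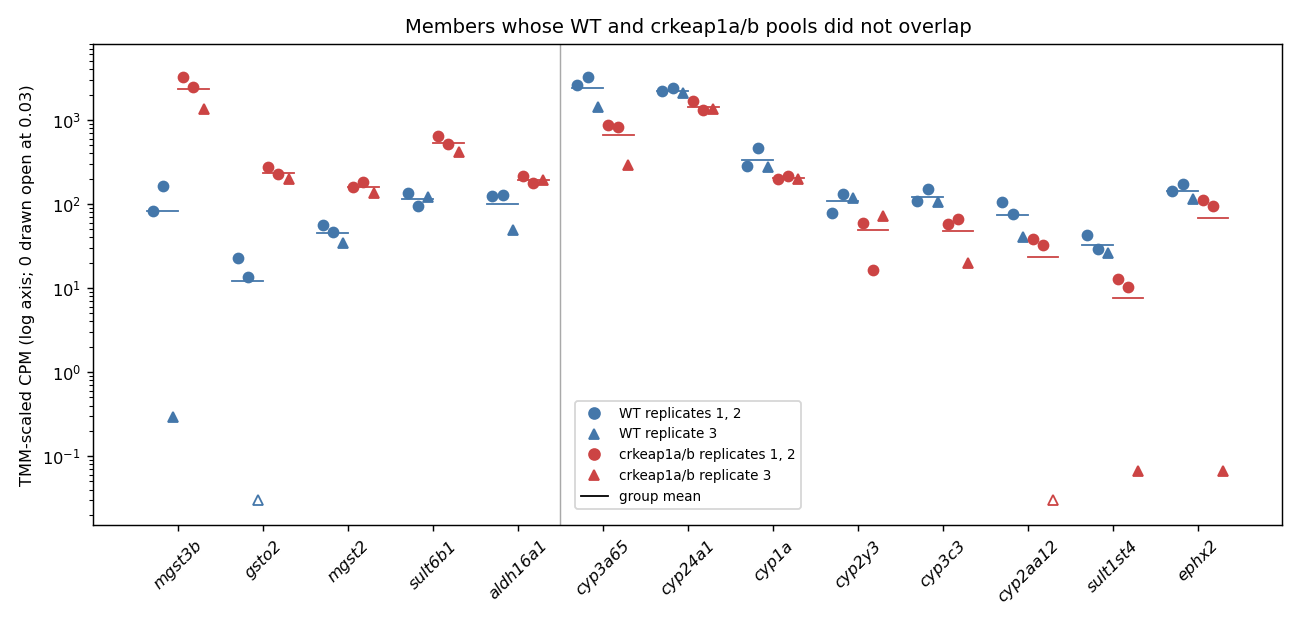
TMM-scaled CPM (log axis) of the 13 genes whose WT (blue) and cr*keap1a/b* (red) pools did not overlap. Circles are replicates 1 and 2, triangles replicate 3, lines group means, and an open symbol a count of 0. The 5 genes on the left were higher in cr*keap1a/b* and the 8 on the right lower. The lowest point is a replicate 3 library for every gene except *sult6b1*, *cyp24a1* and *cyp2y3*.

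Among the glutathione S-transferases, 3 genes were higher in all cr*keap1a/b* pools: *mgst3b* and *mgst2*, membrane-bound enzymes of the microsomal class, and *gsto2*, of the omega class. *mgst3b* (gene ID 567275) had 81.5, 164 and 0.291 CPM in WT and 3280, 2446 and 1356 CPM in cr*keap1a/b*. The lowest cr*keap1a/b* pool was thus well above the highest WT pool, and WT replicate 3 held 5 counts of it. The means were 82.1 ± 82.1 and 2361 ± 965 CPM, a 28.8-fold difference. The log2 fold change was 8.58 ± 1.74 (SE) in limma-voom (adjusted p = 0.000896) and 4.66 within letter a (limma-voom, adjusted p = 7.5e-44). Its adjusted p was 0.0578 in edgeR and 0.0692 in DESeq2.

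*gsto2* (492500), whose mammalian counterpart reduces dehydroascorbate, had 22.8, 13.6 and 0 CPM in WT and 279, 227 and 198 CPM in cr*keap1a/b*. Every cr*keap1a/b* pool was above every WT pool, and the means differed 19.3-fold. limma-voom did not call it over all 6 libraries (adjusted p = 0.313), with an SE of 2.74 on the log2 scale and WT replicate 3 at 0, and called it within letter a (log2 fold change 3.81, adjusted p = 3.39e-06). Over all 6 libraries it was called by DESeq2 (adjusted p = 0.0119) and by limma with a trend (0.0455). *mgst2* (723997) had 56.0, 46.0 and 34.5 CPM in WT and 160, 182 and 134 CPM in cr*keap1a/b*. The spread within each group was small beside the 3.49-fold difference of the means, and it was called by limma-voom within letter a (adjusted p = 0.00492) and neither by edgeR there (0.0632) nor by limma-voom over all 6 libraries (0.619).

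None of the other 8 glutathione S-transferases separated the groups. *mgst3a*, the paralog of *mgst3b*, had 130, 63.4 and 0 CPM in WT and 84.1, 93.9 and 0 CPM in cr*keap1a/b*, so its groups overlapped. *gstz1*, the maleylacetoacetate isomerase of tyrosine breakdown, had 380, 281 and 178 CPM against 264, 244 and 115 CPM. *gstr*, of the rho class found in fish, had 269, 218 and 37.4 CPM against 217, 154 and 4.19 CPM. Both overlapped, with intervals of the log2 difference from −1.47 to 0.66 for *gstz1* and from −3.26 to 0.69 for *gstr*. *gsto1* was near the floor in WT (2.51, 0 and 0 CPM against 15.2, 11.7 and 0), and *gstt1b*, of the theta class, was scattered (0, 19.3 and 1.22 CPM against 19.9, 18.6 and 0). *gstk1*, the kappa-class enzyme of mitochondria and peroxisomes, is named here after its values were seen: it had 19.3, 31.8 and 70.0 CPM in WT against 21.1, 0 and 0 CPM, and its adjusted p in limma-voom was 0.317.

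Summed over the 3 microsomal enzymes, CPM was 267, 274 and 34.7 in WT, against 3523, 2722 and 1490 in cr*keap1a/b*. *mgst3b* made up 30.5%, 60.0% and 0.839% of it in WT, against 93.1%, 89.9% and 91.0% in cr*keap1a/b*. The 8 *gst* genes summed to 812, 742 and 394 CPM in WT and 939, 755 and 481 CPM in cr*keap1a/b*, which overlap. Without *gsto2* the sums were 789, 729 and 394 against 660, 528 and 283 CPM.

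Of the sulfotransferases, which transfer sulfate from the donor PAPS, *sult6b1* (322462) rose. It had 133, 94.2 and 120 CPM in WT and 641, 511 and 420 CPM in cr*keap1a/b*. The pools of a group lay close together, replicate 3 included, and the groups were far apart. The means were 116 ± 19.9 and 524 ± 111 CPM, a 4.52-fold difference, with a log2 fold change of 2.12 ± 0.57 (limma-voom, adjusted p = 0.0377). The value was 2.36 within letter a (limma-voom, adjusted p = 3.14e-09), while edgeR gave an adjusted p of 0.0584 and DESeq2 0.000632.

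The most abundant sulfotransferase in WT, *sult2st2*, had 372, 383 and 128 CPM in WT and 366, 390 and 230 CPM in cr*keap1a/b*. Its groups overlapped fully, and the interval of the log2 difference ran from −0.53 to 1.43. *sult2st1* had 18.5, 2.33 and 0 CPM against 32.6, 16.7 and 19.3 CPM, and *sult1st6* 54.9, 41.5 and 0.700 CPM against 39.2, 34.4 and 28.9 CPM. Neither separated the groups. *sult1st4*, named after its values were seen, was lower without overlap (42.8, 28.9 and 26.0 CPM against 12.7, 10.2 and 0.0666 CPM) and was not called (limma-voom, adjusted p = 0.794). Summed over the family, sulfotransferases went from 642, 572 and 275 CPM to 1153, 984 and 709 CPM. The sum without *sult6b1* was 508, 478 and 155 CPM against 512, 473 and 289 CPM, so the separation of the sums rested on that gene.

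Where P450s separated the groups, they were lower in cr*keap1a/b*. *cyp3a65* (553969), a zebrafish member of the CYP3A subfamily that oxidizes many drugs and steroids, had 2594, 3224 and 1440 CPM in WT and 875, 824 and 289 CPM in cr*keap1a/b*. It had the highest WT mean of the 82 genes, and every cr*keap1a/b* pool was below every WT pool. The means were 2419 ± 905 and 663 ± 325 CPM, 3.65-fold lower in cr*keap1a/b*. The log2 fold change was −1.84 ± 0.32 in limma-voom (adjusted p = 5.11e-05), −1.74 within letter a (limma-voom, adjusted p = 8.41e-12) and −1.87 in edgeR (adjusted p = 0.0584). Its share of all P450 CPM was 31.8%, 33.7% and 30.3% in WT, against 16.8%, 19.2% and 10.1% in cr*keap1a/b*.

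The calls of *cyp3a65*, *mgst3b* and *sult6b1* depended on which libraries were in the fit. *cyp3a65* was called in 13 of 19 alternatives, *mgst3b* in 8 and *sult6b1* in 7, and each kept its direction in all 19. Without WT replicate 1, without WT replicate 2 or without cr*keap1a/b* replicate 2, limma-voom called none of the 3 (adjusted p of *cyp3a65* 0.999998, 0.999995 and 1), and these fits called 1, 4 and 1 of all genes tested, with 4, 14 and 1 at an unadjusted p under 0.05 and 0 of these among the 82. Without cr*keap1a/b* replicate 1, *mgst3b* and *sult6b1* lost their calls. The log2 fold change over these leave-one-out fits ranged from −2.32 to −1.32 for *cyp3a65*, from 4.25 to 9.43 for *mgst3b* and from 2.04 to 2.30 for *sult6b1*, and the value of *mgst3b* was 4.25 without WT replicate 3. *mgst3b* and *sult6b1* were not called with RLE factors in place of TMM (limma-voom, adjusted p = 0.133 and 0.99994), nor when rows without a gene ID were kept (0.0606 and 0.0671), nor with the description letter as a covariate (0.602 and 0.103), where *cyp3a65* was (0.0494). With the replicate number as a block, *cyp3a65* was not called (limma-voom, adjusted p = 0.139 by title number and 0.0837 by description code).

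*cyp24a1*, the enzyme that inactivates vitamin D, had the second highest WT mean of the 82 genes. It had 2200, 2408 and 2064 CPM in WT and 1672, 1294 and 1361 CPM in cr*keap1a/b*, with all 3 pools lower. The log2 fold change was −0.61 ± 0.20, and it missed the threshold over all 6 libraries (limma-voom, adjusted p = 0.146) and within letter a (0.0824). *cyp1a*, the classical target of the aryl hydrocarbon receptor, had 279, 459 and 275 CPM against 200, 216 and 197 CPM. The cr*keap1a/b* pools lay in a narrow band just under the WT pools, and the log2 difference of −0.62 had an interval from −1.62 to 0.37.

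*cyp2y3* had 78.8, 131 and 119 CPM in WT and 59.8, 16.4 and 72.8 CPM in cr*keap1a/b*. It was called within letter a (log2 fold change −1.70, limma-voom, adjusted p = 0.0293), but not by edgeR there (adjusted p = 0.490) or by limma-voom over all 6 libraries (−1.35, adjusted p = 0.780). The remaining P450s described in this paragraph were named after their values were seen. *cyp3c3*, of the CYP3 family, had 109, 152 and 106 CPM against 58.0, 67.1 and 19.8 CPM, and *cyp2aa12* had 105, 76.0 and 40.8 CPM against 37.8, 32.3 and 0 CPM. Neither was called. *cyp2u1*, whose human counterpart hydroxylates fatty acids, had 102, 118 and 17.2 CPM against 17.1, 38.2 and 0 CPM. Its groups overlapped through WT replicate 3, and it was called by limma-voom within letter a (log2 fold change −2.05, adjusted p = 0.00732) but not by edgeR there (0.127).

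The P450s of bile acid synthesis gave no separation. *cyp7a1*, the rate-limiting enzyme of the pathway, had 957, 1016 and 165 CPM in WT and 812, 569 and 315 CPM in cr*keap1a/b*. The change of *cyp7a1* on the log2 scale was 0.26 (95% interval −0.61 to 1.12) over all 6 libraries and −0.52 within letter a, and over all 6 libraries it was also negative in edgeR (−0.33) and DESeq2 (−0.36). *cyp8b1.1*, the sterol 12-alpha-hydroxylase, and *cyp27a1.1*, a sterol 27-hydroxylase, are named after their values were seen. *cyp8b1.1* had 121, 173 and 0.0583 CPM against 118, 74.9 and 0 CPM, and *cyp27a1.1* had 48.9, 53.1 and 0 CPM against 44.4, 40.5 and 33.4 CPM. *cyp2ad2*, the most abundant CYP2 gene of the table in WT, had 605, 599 and 144 CPM against 527, 424 and 68.4 CPM, with an interval of the log2 difference from −1.53 to 0.64.

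Of all 33 P450s, 20 had a negative log2 fold change over 6 libraries and 24 within letter a (60.6% and 72.7%, against 43.0% and 44.5% of all genes tested). Their median was −0.44 and −0.60, where the median of all genes was 0.36 and 0.21. Genes with 0 counts in some libraries raise that median of all genes and lower their share of negative changes. Among the 1935 genes above 0 in all 6 libraries, 960 were negative, and the median was 0.010 and 0.071. Of the 33 P450s, 13 were above 0 in all 6, and the negative share and median of these 13 were not taken. By subfamily, 2 of 2 CYP1, 12 of 17 CYP2 and 2 of 3 CYP3 genes were negative over 6 libraries, and 2, 13 and 3 within letter a. Of the 9 genes of sterol, bile acid and vitamin D metabolism, with which *cyp2r1* was counted, 3 were negative over 6 libraries and 5 within letter a, and the difference between subfamilies was not tested. P450 CPM summed to 8162, 9579 and 4758 in WT, against 5212, 4290 and 2854 in cr*keap1a/b*, and these ranges overlapped, cr*keap1a/b* replicate 1 being above WT replicate 3. Without *cyp3a65* the sums were 5568, 6355 and 3318 against 4336, 3467 and 2565 CPM. Markers of neighbouring cells were also measured. In the zebrafish larva *cyp3a65* is also expressed in the intestine, and 5 of 12 intestinal markers were in the table, with 0 called. They summed to 291 to 406 CPM in WT and 164 to 653 in cr*keap1a/b*, and *fabp2* and *fabp6*, which define enterocytes, were not in it. In the ranges given above, the sums of exocrine pancreas, biliary and skeletal muscle markers were lower in cr*keap1a/b* without overlap. Those of hepatocyte markers reached lower values there but overlapped. Of the 11 hepatocyte markers, 8 had a negative log2 fold change over 6 libraries, and the median of the 11 was −0.39. A negative median was thus not particular to the P450s. The part of any of these cell types in the P450 result was not tested. In pooled tissue, fewer cells of a type and less RNA per cell cannot be told apart.

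**Figure D2:**
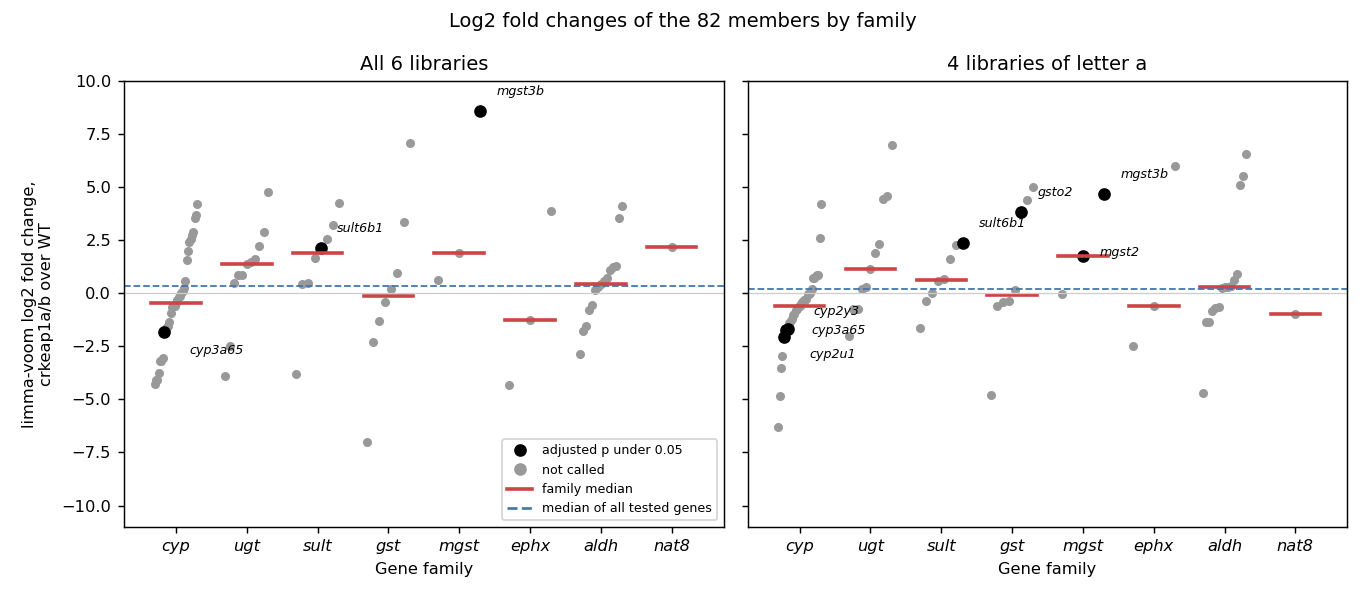
limma-voom log2 fold changes (cr*keap1a/b* over WT) of the 82 genes by family, over all 6 libraries and over the 4 libraries of letter a. Points are genes, black ones have an adjusted p under 0.05, red lines are family medians and the dashed line is the median of all tested genes. The *cyp* median lies below the dashed line in both panels (−0.44 and −0.60). So do the medians of *gst* (−0.11 and −0.09) and *ephx* (−1.27 and −0.59). The single *nat8* value changes sign between the panels.

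The aldehyde dehydrogenases, which oxidize aldehydes from lipids, amino acids and folate metabolism, gave no call. *aldh6a1*, the methylmalonate semialdehyde dehydrogenase of valine breakdown, was the most abundant of them, with 1540, 1745 and 1153 CPM in WT and 1153, 898 and 531 CPM in cr*keap1a/b*. The groups met at WT replicate 3 and cr*keap1a/b* replicate 1. Its log2 fold change was −0.80 ± 0.27 (limma-voom, adjusted p = 0.193). *aldh1l1*, the 10-formyltetrahydrofolate dehydrogenase, had 357, 576 and 84.5 CPM against 359, 213 and 174 CPM, and *aldh7a1*, of lysine breakdown, had 283, 437 and 136 CPM against 479, 383 and 141 CPM. Both overlapped, with intervals of the log2 difference from −0.95 to 1.24 and from −0.71 to 1.34. *aldh16a1*, named after its values were seen, was higher in all cr*keap1a/b* pools (124, 130 and 48.5 CPM against 215, 178 and 192 CPM), and its log2 fold change of 1.297 was not called (limma-voom, adjusted p = 0.685). Over the 15 genes the median log2 fold change was 0.43, and 0.28 within letter a.

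The glucuronosyltransferases gave no call and no separated gene under TMM scaling. *ugt1a7* had 197, 120 and 22.5 CPM in WT and 177, 174 and 152 CPM in cr*keap1a/b*. The cr*keap1a/b* pools varied little, and WT replicate 3 was the low value. The log2 fold change was 1.48 ± 0.75 over 6 libraries (limma-voom, adjusted p = 0.661) and 0.19 within letter a. Of the 11 genes, 1 was above 0 in all 6 libraries and 5 were at 0 in both replicate 3 libraries. Their summed CPM was 455, 467 and 117 in WT, against 400, 432 and 170 in cr*keap1a/b*, which overlap.

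The epoxide hydrolases add water to epoxides, many of which P450s make. *ephx2*, the soluble enzyme, had 141, 175 and 115 CPM in WT and 112, 95.1 and 0.0666 CPM in cr*keap1a/b*. It was lower without overlap, cr*keap1a/b* replicate 1 lying just under WT replicate 3, and was not called (limma-voom, adjusted p = 0.527). Its log2 fold change was −4.33 with cr*keap1a/b* replicate 3 and −0.59 within letter a. *ephx1*, the microsomal enzyme, was seen in WT replicate 2 alone (0, 4.16 and 0 CPM) and in cr*keap1a/b* replicates 1 and 2 (52.0, 16.5 and 0 CPM). Its log2 fold change of 3.88 had an SE of 3.61. *nat8*, whose mammalian counterpart acetylates cysteine conjugates at the end of the glutathione route, had 15.4, 25.3 and 0 CPM against 21.0, 5.17 and 5.79 CPM, with overlap and a log2 fold change of 2.19 over all libraries and −0.95 within letter a.

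**Figure D3:**
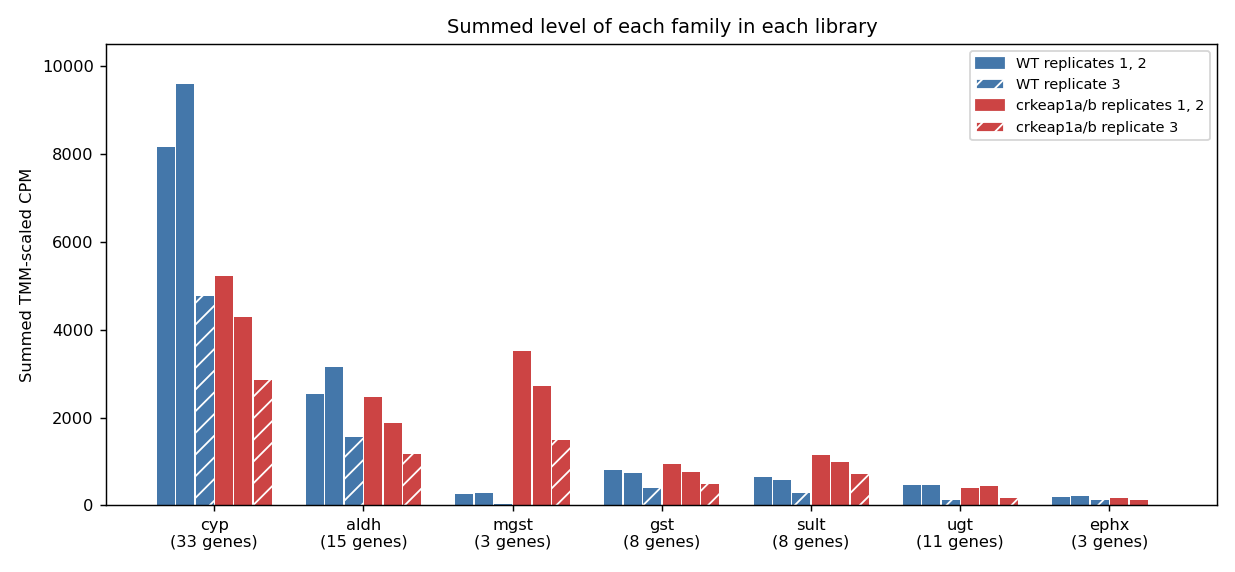
Summed TMM-scaled CPM of each family in each library, WT in blue and cr*keap1a/b* in red, with replicate 3 hatched; *nat8* is not drawn. The *mgst* bars are at most 274 in WT and at least 1490 in cr*keap1a/b*, and the *cyp* bars overlap between WT replicate 3 (4758) and cr*keap1a/b* replicate 1 (5212).

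Taking the 82 genes as a list, the median log2 fold change was 0.44 where that of all genes was 0.36. Within letter a it was −0.03 beside 0.21, and in edgeR −0.31 beside 0.058, so the sign of the list's median was not stable. Relative to the median of all genes, which was 0.36 under TMM and 0.57 under library size only, the change of *mgst3b* was 8.22, that of *sult6b1* 1.76 and that of *cyp3a65* −2.20 under TMM. Within letter a, relative to the median of all genes there, these changes were 4.44, 2.14 and −1.95. In 55 of the 82 genes the SE was above 2 on the log2 scale (76.4% of all genes), so that a change of several fold could not be told from none with this spread between pools. The 95% interval of each log2 difference covers the spread between pools, as shared between genes by the fit, and not whether pools are separate clutches. A total of 3 counts was worth 0.175 to 0.367 CPM in these libraries, and such floors cover counting error only.

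Genes that supply or follow these enzymes were taken from a list of 112, chosen with earlier results of these data known. Its counts beside the background, in all or by role, therefore describe the list and test nothing. Of the 112, 53 were in the table. Of these 53, limma-voom called 2 higher and 0 lower (0.595% of all genes in each direction). An unadjusted p under 0.05 was found for 11 of the 53, and for 486 of all 6386 genes tested. edgeR called 3 higher, *ptgr1.2*, *tpmt.2* and *pon1*, and 0 lower (0.251% and 0.0940% of all genes). Within letter a, limma-voom called 8 of 52 tested higher (background 2.31%) and 3 lower (background 2.15%). Both limma-voom calls over all 6 libraries were paralogs of prostaglandin reductase 1, an enzyme that reduces reactive carbonyls. *ptgr1.2* had 27.1, 38.0 and 1.11 CPM in WT and 18047, 18266 and 16074 CPM in cr*keap1a/b* (limma-voom, adjusted p = 7.02e-05). *ptgr1.1* had 0 counts in every WT library and 483, 971 and 259 counts in cr*keap1a/b* (limma-voom, adjusted p = 0.0358). Their 3′ ends may share reads, so the split between them is uncertain. *pon1*, named after its values were seen, had 6.70, 0.122 and 0.0583 CPM in WT and 315, 201 and 187 CPM in cr*keap1a/b*. Its adjusted p was 0.0497 in edgeR and 0.0783 in limma-voom.

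Glutathione supply, which feeds the transferases, had 3 of 6 genes higher without overlap (8.39% of all genes) and 0 called over all 6 libraries. Within letter a, limma-voom called 2 higher (background 2.31%), *gsr* and *gclc*, and 1 lower (background 2.15%), *cbsb*. edgeR called none of these there (adjusted p = 0.0747, 0.0530 and 0.0910). *gsr*, which regenerates glutathione, had 3.77, 26.9 and 47.5 CPM in WT and 169, 185 and 167 CPM in cr*keap1a/b*. Its adjusted p in limma-voom was 0.629 over all 6 libraries and 0.000881 within letter a (log2 fold change 4.35). The others higher without overlap were *gclc* and *gclm*, the subunits of the rate-limiting enzyme of glutathione synthesis. Among the other phase II enzymes, *tpmt.2*, a thiopurine methyltransferase, had 4, 1 and 0 counts in WT against 1750, 995 and 552 counts in cr*keap1a/b*, and just missed the threshold in limma-voom (adjusted p = 0.0522). Over all 6 libraries *tpmt.2* was called by edgeR (adjusted p = 0.0454) and DESeq2 (2.99e-08). Within letter a it was called by edgeR (0.00136) and not by limma-voom (0.170). Its paralog *tpmt.1*, named after its values were seen, had 10.8, 56.6 and 0 CPM in WT against 454, 325 and 472 CPM. Within letter a *tpmt.1* was called by limma-voom (adjusted p = 5.43e-10) and edgeR (0.0395). Over all 6 libraries neither limma-voom (0.209) nor edgeR (0.303) called it. Whether these paralogs share reads was not tested. Of 7 export transporters, 1 was higher and 2 were lower without overlap (8.39% and 5.0% of all genes), and limma-voom called 0 over all 6 libraries. *abcc5* had 29.6, 25.2 and 65.3 CPM in WT against 1.98, 0 and 0 CPM (limma-voom, adjusted p = 0.115). *abcc2*, which exports conjugates into bile and is named after its values were seen, had 14.1, 48.4 and 56.9 CPM against 269, 141 and 295 CPM, and was called by limma-voom within letter a (log2 fold change 2.97, adjusted p = 2.21e-05) but not over all 6 libraries (2.57, adjusted p = 0.372). edgeR did not call it within letter a (adjusted p = 0.0760), and DESeq2 called it over all 6 libraries (0.0343).

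Of 10 listed electron donors and partners of P450s, 6 were in the table. Of these, limma-voom called 0 over all 6 libraries and 0 within letter a. The listed genes not in the table could not be examined. edgeR within letter a called *cyb5b* higher (log2 fold change 2.98, adjusted p = 0.0366), which is named after its values were seen. *cyb5b* had 11.4, 9.92 and 56.1 CPM in WT and 80.4, 85.1 and 0.0666 CPM in cr*keap1a/b*, with overlap. *pgrmc1*, a heme-binding partner of P450s, had 101, 118 and 98.6 CPM in WT and 200, 160 and 279 CPM in cr*keap1a/b*, higher in all pools (limma-voom, adjusted p = 0.741). The donor supply of glucuronidation and sulfation had 5 of 12 listed genes in the table. It gave 0 calls over all 6 libraries, and 1 lower of 4 within letter a (background 2.15%). The nuclear receptors of xenobiotics and bile acids, with the Nrf2 gene *nfe2l2a*, had 6 of 20 listed genes in the table. They gave 0 calls, and 5 of the 6 had a negative log2 fold change (43.0% of all genes). The smallest p of the former was that of *slc35b2*, a PAPS transporter of the Golgi (0, 0 and 62.3 CPM in WT against 13.1, 0.636 and 3.53 CPM). That of the latter was *rxrba*, a retinoid X receptor (54.8, 36.0 and 25.7 CPM in WT against 20.7, 32.0 and 0 CPM), and the groups of both overlapped.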

How the data were processed

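The deposited table holds unnormalised counts of reads, a row per Entrez gene ID, which the authors made from single-end QuantSeq 3′ libraries with cutadapt 1.16, STAR 2.7.5b, the danRer11 genome and featureCounts 1.6.3 (named in the submitters' processing notes and the methods). Molecular identifiers are not mentioned. Symbols came from RefSeq names: 6426 of 6502 IDs matched. The 135 rows without an ID, 9.82% to 13.6% of the counts, were left out of totals and tests. Genes passing filterByExpr were scaled by TMM and fitted with limma-voom (limma 3.58.1, edgeR 4.0.16, R 4.3.3), the tool the study names, with group as the only term and Benjamini-Hochberg adjustment over all 6386 genes tested. Calls have an adjusted p under 0.05, and intervals are 95% intervals of that fit.

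The genes, the pathway list and the cell type markers were chosen with earlier results of these data known. Genes were named if called, if called by edgeR or within letter a without overlap, if among the 12 with the highest mean CPM, if they had the smallest p of their family or pathway role, or if on a short list of known enzymes. Others of these families and the pathway list named for their results are marked, except *mgst3a*, *gclm*, *cbsb* and *cyb5r3*. These also fell outside the rule and should not be read as chosen beforehand. Alternatives numbered 16, with 3 more (library size only, rows without an ID kept, edgeR within letter a) chosen after seeing the data. A planned promoter search was not run, and no sequence or coordinate is given.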

Additional observations from a re-analysis of the deposited data

How the results depend on the processing

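Relative to 2 genes called higher, edgeR's quasi-likelihood test gave 0, RLE factors 0, no filter 1, library size only 1, rows without an ID kept 0, the letter as a covariate 0 and letter a alone 4. Over all genes tested, limma-voom called 38 higher. The same alternatives, in that order, called 16, 9, 31, 26, 24, 7 and 149 of all genes higher. Relative to 1 called lower, edgeR gave 0 and letter a alone 3. Lower calls among all genes were 38 in limma-voom, 6 in edgeR and 139 within letter a. In edgeR 4 higher and 1 lower, with RLE factors 2 higher, and with rows without an ID kept or the letter as a covariate 5 higher, had an unadjusted p under 0.05. In the same order, 253, 147, 467 and 570 of all genes had one, in both directions together. With a replicate block by title number or by description code, 0 were called higher and 0 lower by limma-voom, with 4 and 3 at an unadjusted p under 0.05 under each. Of all genes, these blocks called 1 and 2 higher and 2 and 3 lower, with 412 and 389 at an unadjusted p under 0.05. Whether the numbers pair the libraries could not be decided with 3 pools per group. Correlations of deviations were 0.051, 0.018 and 0.082 for equal title numbers and 0.050, 0.052 and 0.082 for equal codes. For unequal codes they ran from −0.075 to 0.051. Leaving out a library gave 0 to 3 higher and 0 to 3 lower, and the median log2 fold change of the 82 genes ranged from −0.97 to 1.52. Among all genes, the same fits called 0 to 125 higher and 1 to 71 lower, and the median ranged from −0.50 to 1.61.

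Signs reversed for genes that were not called. *aldh1l1* (0.15) was −0.45 in edgeR, −0.47 in DESeq2, −0.13 with a limma trend, −0.69 within letter a in limma-voom and in edgeR, −0.32 with the letter as a covariate, and −0.32 and −0.33 with the replicate block by number and by code. *cyp7a1* (0.26) was −0.33, −0.36, −0.048, −0.52, −0.49, −0.29, −0.27 and −0.28 in the same order, edgeR within letter a following limma-voom there. *nat8* (2.19) was −0.35 in edgeR, −0.37 in DESeq2, −0.95 within letter a and −0.62 in edgeR there, and *sult1st6* (2.53) was −0.37 in both fits of letter a. Without 1 library, values ranged from −0.95 to 0.69 for *aldh1l1*, −0.94 to 0.75 for *cyp7a1*, −1.27 to 3.36 for *nat8*, −0.54 to 3.16 for *sult1st6*, −0.87 to 4.15 for *gstt1b*, −0.28 to 0.86 for *aldh7a1*, −1.35 to 0.50 for *cyp2ad2*, −2.50 to 0.74 for *gstr* and −0.25 to 0.77 for *sult2st2*. The cause was not tested. Over the 24 genes named by the rule and all alternatives, 384 values kept direction and side of the threshold, 29 lost a call, 7 gained one and 34 reversed. Genes at 0 in the replicate 3 libraries limit what these fits can show, although those libraries did not have the fewest counts.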

Other observations

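A few genes of these families, chosen after their values were seen, were found in WT replicate 3 but hardly in the other WT pools. *aldh1l2*, a mitochondrial folate enzyme, was counted 0, 0 and 721 times in WT, replicate 3 last, against 83, 12 and 0 times in cr*keap1a/b*. *ugt2b6*, a glucuronosyltransferase, had 0, 2 and 516 counts against 150, 232 and 0. *aldh2.2*, a mitochondrial aldehyde dehydrogenase, had 1, 0 and 487 counts against 112, 103 and 0. In all 3 the cr*keap1a/b* counts came from replicates 1 and 2 alone. The WT pattern was not confined to these families. In the pathway list, *slc35b2* had 0, 0 and 1069 counts in WT and *cyb5r3* 16, 1 and 1464. The share of all genes with such counts was not taken.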
